A study of Homo sapiens with 12 samples.

Results

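The NF-kB and inflammatory genes described here are a list of 34 genes matched by gene symbol to the deposited array table, of which 30 had a named row and 4 (BIRC3, TNF, SOD2 and BCL3) are not analysed here. They were measured among 17687 genes in LNCaPabl-Abi and LNCaPabl-Enza, epithelial sublines of LNCaP, a widely used line from a human prostate cancer. What Abi and Enza mean is not given in the labels, nor whether a subline is 1 clone. Each line received the solvent DMSO (groups Abi_Ctrl and Enza_Ctrl) or 100 nM dexamethasone, a synthetic glucocorticoid, for 24 h (groups Abi_Dex and Enza_Dex), with 3 arrays per group and 12 in all. No group received a cytokine or another inflammatory stimulus according to the labels, and the growth medium given for LNCaP, with fetal calf serum, is the only one named. The comparisons asked whether dexamethasone lowered any of these genes in either line, and which of them were expressed above the array's background at all.

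NF-kB is a family of dimeric transcription factors built from the Rel proteins RELA, RELB, REL and the products of NFKB1 and NFKB2. Inhibitor proteins such as the product of NFKBIA hold the dimers in the cytoplasm until inflammatory signals trigger their degradation, after which the dimers bind kappaB elements in the promoters of chemokine, cytokine and feedback genes. Glucocorticoids are known in many cell types to repress NF-kB targets through the glucocorticoid receptor and to induce some inhibitors of the pathway, NFKBIA among them.

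Promoter sequences were taken from RefSeq (GRCh38.p14) to show which kind of element these genes carry next to the levels given further on. Promoter windows of 300 bases, from 250 before to 50 after the start, were found for 29 of the 34 genes, 25 of them measured, and CSF1, RELB, CCL2, NFKBIE and LIF had no entry. The kappaB consensus, a pattern of 10 letters searched on both strands, was found in 13 of the 25 windows of measured members. The share among all 27305 promoters of the table was 10.8%, and among the 14250 of genes on the array 12.4%. The members were chosen as genes of the NF-kB pathway and its targets, so a higher share was built in and is no result about them. A window without a match, such as that of CXCL8, shows only that this pattern is not in it. Of the members above background on the 11 arrays other than Enza_Ctrl replicate 2, the array described below, 6 of 10 held a match, and of the other members with a window 7 of 15 did. The glucocorticoid response element, AGAACA and TGTTCT with any 3 letters between them, searched on both strands, was found in 0 of the 25 windows and in 1 of the 27305, which says only that these letters are not in these windows. The lines below give bases 120 to 21 before the start, 5′ to 3′ on the gene's strand, with kappaB matches in capitals (in IL32 and CXCL1, 2 overlapping matches on opposite strands; in TNFAIP3, 2 separate ones). NFKBIA, IL32 and TNFAIP3 are shown as members above background, IL6, CXCL1 and CCL20 as members below it with the same kind of element, and IL1B as the member with the lowest difference after dexamethasone in LNCaPabl-Abi, with no match in this stretch. They lie at chr14:35404770-35404869 (minus strand), chr16:3065283-3065382 (plus), chr6:137867139-137867238 (plus), chr7:22727080-22727179 (plus), chr4:73869273-73869372 (plus), chr2:227813722-227813821 (plus) and chr2:112836800-112836899 (minus), in the order just named.
NFKBIA: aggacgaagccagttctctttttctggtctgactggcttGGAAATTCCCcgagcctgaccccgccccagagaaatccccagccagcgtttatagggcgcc
IL32: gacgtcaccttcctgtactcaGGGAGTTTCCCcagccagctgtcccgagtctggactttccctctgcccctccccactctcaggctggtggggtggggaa
TNFAIP3: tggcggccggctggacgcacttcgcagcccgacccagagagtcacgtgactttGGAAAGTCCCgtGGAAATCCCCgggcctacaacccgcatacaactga
IL6: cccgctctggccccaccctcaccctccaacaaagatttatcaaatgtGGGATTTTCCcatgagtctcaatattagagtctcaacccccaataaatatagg
CXCL1: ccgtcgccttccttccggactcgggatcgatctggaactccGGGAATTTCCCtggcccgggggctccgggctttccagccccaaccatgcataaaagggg
CCL20: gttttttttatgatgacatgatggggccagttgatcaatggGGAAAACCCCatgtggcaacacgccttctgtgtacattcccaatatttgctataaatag
IL1B: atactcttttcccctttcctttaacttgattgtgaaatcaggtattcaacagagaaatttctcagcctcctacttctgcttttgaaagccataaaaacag

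One array, Enza_Ctrl replicate 2, differed from the remaining 11. Its median Pearson r with the other arrays was 0.873, against 0.987 to 0.991 for each of the others, and its median background row was at 5.77 against 3.95 to 3.98. The members moved with it: 13 of 30 were higher on it than on all other arrays and 12 were lower (35.3% and 40.5% of all genes). Among the 11 members whose mean lay above the background threshold, 10 were lowest on this array (68.9% of such genes), and among the 19 dimmer ones 12 were highest on it (62.3%). IL32, which encodes a proinflammatory cytokine, read 7.74 there and between 10.65 and 11.78 elsewhere. CCL2, a chemokine that attracts monocytes, read 8.98 there and between 3.64 and 5.19 elsewhere. Markers of other cell types were also displaced there, with the mean of 14 immune genes at 5.94 against 4.64 to 4.98. The mean of 9 fibroblast genes was 5.73 against 4.19 to 4.48, and that of 10 endothelial genes 5.12 against 4.58 to 4.89. Most of these markers were below the background threshold on the other arrays, and 62.3% of all such dim genes read highest on this array. Their rise was thus shared with dim genes in general. The mean of 10 housekeeping genes was 12.38 on it against 13.03 to 13.26. The part of these shifts in the comparisons with Enza_Ctrl was not tested beyond leaving the array out. Luminal prostate markers bore out the epithelial label, with 10 of 11 above background in every group, and 0 to 2 of 14 immune genes were.

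**Figure D1:**
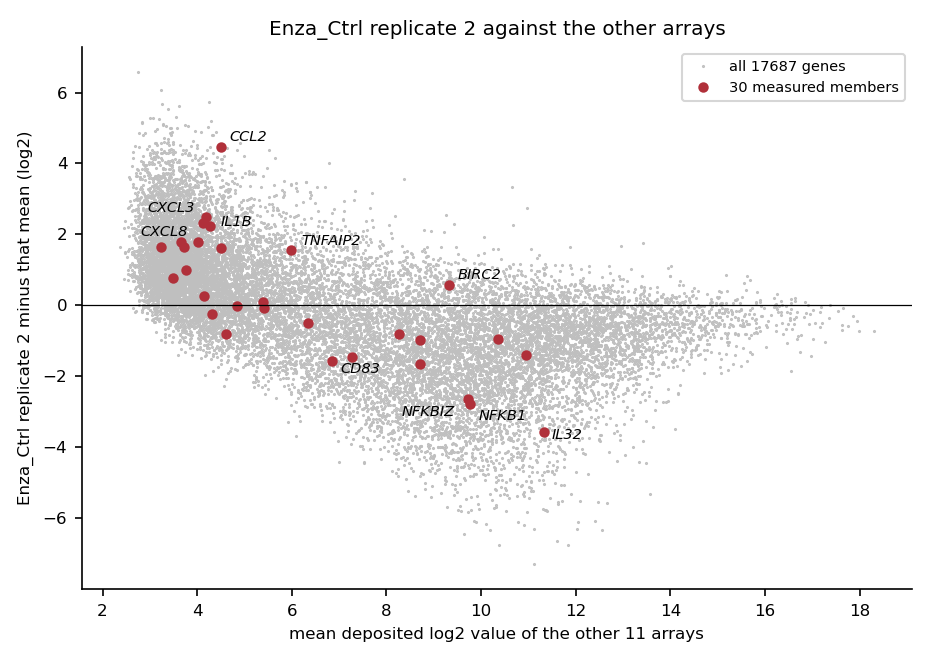
Each point is a gene, with its mean log2 value on the other 11 arrays on the x axis and its value on Enza_Ctrl replicate 2 minus that mean on the y axis (grey, all genes; red, the 30 measured members). Dim members such as CCL2 lay above 0 and bright ones such as IL32 below it, in the same directions as most of the dim and bright genes in grey.

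Most Rel proteins and several inhibitors were above background in both lines, while the chemokines and all cytokines but IL32 were not. A gene was counted as above background in a group when it exceeded, on all 3 arrays, the 95th percentile of the 23 background rows of the same array, which lay between 6.46 and 6.70. This held for 10 of 30 members in Abi_Ctrl, 11 in Abi_Dex, 9 in Enza_Ctrl and 10 in Enza_Dex, where 48.3%, 48.8%, 38.8% and 48.2% of all genes passed. Without replicate 2 the count in Enza_Ctrl was 11. The same 10 members passed on all 11 arrays without Enza_Ctrl replicate 2 (46.4% of all genes): NFKB1, NFKB2, REL, RELA, NFKBIA, NFKBIZ, TNFAIP3, TNIP1, BIRC2 and IL32. On none of these 11 arrays passed 17 members (45.9% of all genes), among them all 6 chemokines, ICAM1 and the cytokines other than IL32. The background rows with the highest values make this a strict threshold. Against the median background row, 20, 22, 16 and 18 members passed in Abi_Ctrl, Abi_Dex, Enza_Ctrl and Enza_Dex (70.9%, 72.2%, 54.1% and 71.4% of all genes). CCL20 and IL6 were above it on none of the 12 arrays (11% of all genes). On all arrays at once 12 members passed it with Enza_Ctrl replicate 2 (52.7% of all genes) and 17 without (67.9%). RNA of these bulk cultures cannot tell fewer expressing cells from less RNA per cell.

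**Figure D2:**
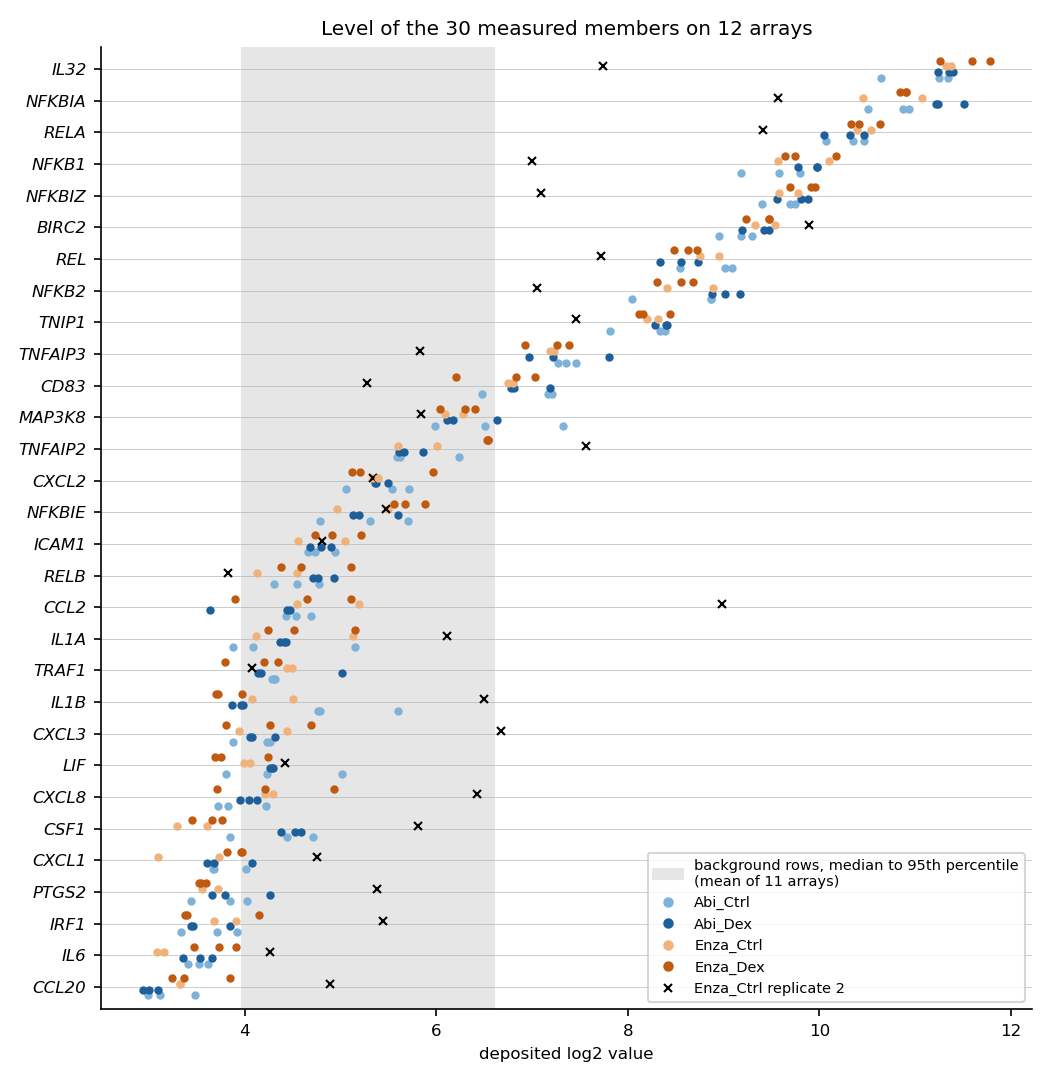
Deposited log2 value (x axis) of each measured member (rows, ordered by mean) on every array, coloured by group, with Enza_Ctrl replicate 2 as a cross. The grey band runs from the median to the 95th percentile of the background rows, and the 10 members at the top lay to its right on all 11 other arrays.

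Of the Rel proteins, 4 of 5 were above background on every array, Enza_Ctrl replicate 2 included. RELA, the main activating subunit, read 10.35, 10.47 and 10.07 in Abi_Ctrl, 10.47, 10.32 and 10.05 in Abi_Dex, 10.54, 9.41 and 10.39 in Enza_Ctrl and 10.33, 10.63 and 10.42 in Enza_Dex. NFKB1, the precursor of p50, read 9.18, 9.58 and 9.80, then 9.78, 9.98 and 9.98, then 9.57, 7.0 and 10.10, then 9.75, 9.64 and 10.17 in the same order of groups. For both genes the low reading of Enza_Ctrl was replicate 2, and the other 11 arrays overlapped between DMSO and dexamethasone in each line. NFKB2, the precursor of p52 in the noncanonical pathway, read 8.87, 8.04 and 8.87 in Abi_Ctrl, 8.88, 9.17 and 9.02 in Abi_Dex, 8.89, 7.05 and 8.41 in Enza_Ctrl and 8.30, 8.68 and 8.56 in Enza_Dex. REL read 8.55, 9.09 and 9.02, then 8.56, 8.34 and 8.73, then 8.75, 7.72 and 8.95, then 8.72, 8.63 and 8.48. NFKB2 was higher on every Abi_Dex array than on any Abi_Ctrl array, by as little as the gap from 8.87 to 8.88. RELB, a partner of p52, stayed below the threshold on all arrays, at 4.30, 4.77 and 4.55, then 4.93, 4.71 and 4.76, then 4.13, 3.82 and 4.55, then 4.59, 5.11 and 4.38.

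Among the inhibitors and feedback regulators, NFKBIA, NFKBIZ and TNIP1 were above background on all 12 arrays and TNFAIP3 on 11. NFKBIA encodes the inhibitor that retains NF-kB in the cytoplasm and is itself an NF-kB target. It read 10.94, 10.87 and 10.51 in Abi_Ctrl, 11.24, 11.51 and 11.22 in Abi_Dex, 11.07, 9.57 and 10.46 in Enza_Ctrl and 10.91, 10.84 and 10.91 in Enza_Dex. All Abi_Dex arrays were above all Abi_Ctrl arrays, while the Enza groups overlapped. TNFAIP3, the ubiquitin-editing enzyme A20 that limits NF-kB signalling, read 7.46, 7.27 and 7.35, then 6.97, 7.22 and 7.80, then 7.23, 5.83 and 7.19, then 7.39, 6.93 and 7.26. NFKBIZ, a nuclear regulator of secondary target genes, read 9.69, 9.75 and 9.40, then 9.88, 9.56 and 9.81, then 9.78, 7.09 and 9.58, then 9.69, 9.91 and 9.96. Both overlapped between DMSO and dexamethasone in LNCaPabl-Abi, and their lowest reading was Enza_Ctrl replicate 2. TNIP1, a partner of A20, ranged from 7.81 to 8.44 on the other 11 arrays. NFKBIE, a further inhibitor, stayed under the threshold, at 5.70, 5.31 and 4.78, then 5.19, 5.60 and 5.13, then 5.50, 5.47 and 4.96, then 5.67, 5.88 and 5.56.

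Of the adaptors, kinases and survival proteins, BIRC2 alone was above background on all arrays. BIRC2, a ubiquitin ligase of TNF receptor signalling, read 9.18, 8.95 and 9.30 in Abi_Ctrl, 9.42, 9.47 and 9.19 in Abi_Dex, 9.54, 9.89 and 9.33 in Enza_Ctrl and 9.48, 9.48 and 9.23 in Enza_Dex. MAP3K8, a kinase that links NF-kB1 to MAP kinase signalling, read 5.99, 7.32 and 6.51, then 6.11, 6.63 and 6.17, then 6.28, 5.84 and 6.09, then 6.40, 6.30 and 6.04, and passed the threshold on 2 arrays. Among the 11 members with a mean above the threshold, BIRC2 alone read highest on Enza_Ctrl replicate 2. TNFAIP2, a TNF-induced protein, read 6.24, 5.59 and 5.62, then 5.86, 5.61 and 5.66, then 6.01, 7.56 and 5.60, then 6.53, 6.54 and 6.54. It was even among the Enza_Dex arrays and passed the threshold on 1 of them. IRF1, a transcription factor induced by interferon and NF-kB, read 3.71, 3.33 and 3.92, then 3.44, 3.46 and 3.84, then 3.68, 5.44 and 3.91, then 3.40, 4.15 and 3.37. PTGS2, the inducible cyclooxygenase, read 3.44, 3.84 and 4.02, then 3.79, 3.66 and 4.26, then 3.55, 5.38 and 3.72, then 3.52, 3.54 and 3.59. IRF1 exceeded the median background row of the same array on 1 of 12 arrays and PTGS2 on 2, and on Enza_Ctrl replicate 2, where that row was at 5.77, both were under it. TRAF1, a signalling adaptor, ranged from 3.79 to 5.01 on the other 11 arrays.

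None of the 6 chemokines passed the threshold on any array other than Enza_Ctrl replicate 2. CXCL8, the neutrophil attractant interleukin-8, read 3.82, 4.22 and 3.72 in Abi_Ctrl, 3.95, 4.04 and 4.13 in Abi_Dex, 4.29, 6.42 and 4.21 in Enza_Ctrl and 3.71, 4.21 and 4.93 in Enza_Dex. CXCL1, which binds the same receptor, read 3.68, 3.67 and 4.01, then 3.68, 4.08 and 3.61, then 3.73, 4.75 and 3.09, then 3.97, 3.96 and 3.81. CXCL8 was above the median background row of the same array on 8 of 12 arrays and CXCL1 on 3. CCL2 read 4.69, 4.53 and 4.43, then 4.47, 4.44 and 3.64, then 5.19, 8.98 and 4.54, then 4.65, 5.11 and 3.90. CCL20, which attracts dendritic cells and lymphocytes, read 3.11, 2.99 and 3.48, then 3.09, 3.0 and 2.94, then 3.32, 4.89 and 3.32, then 3.24, 3.36 and 3.85. CCL2 was the member with the widest gap between Enza_Ctrl replicate 2 and the rest. CXCL2 and CXCL3 ranged from 5.06 to 5.97 and from 3.80 to 4.69 on the other 11 arrays.

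The cytokines divided into IL32, far above the threshold, and the rest below it. IL32 read 11.34, 10.65 and 11.25 in Abi_Ctrl, 11.36, 11.40 and 11.24 in Abi_Dex, 11.32, 7.74 and 11.38 in Enza_Ctrl and 11.26, 11.60 and 11.78 in Enza_Dex. IL6, an inflammatory cytokine, read 3.41, 3.52 and 3.62, then 3.35, 3.53 and 3.66, then 3.16, 4.26 and 3.08, then 3.91, 3.47 and 3.73. IL6 is a classical NF-kB target, and its readings were all under the median background row of their array. IL1B, the secreted fever-inducing cytokine interleukin-1 beta, read 4.79, 4.76 and 5.60, then 3.98, 3.96 and 3.87, then 4.50, 6.5 and 4.08, then 3.70, 3.97 and 3.72. Every IL1B reading with dexamethasone was below every reading with DMSO in the same line, and all 12 were under the threshold. IL1B exceeded the median background row of the same array on 3 of 3 arrays in each DMSO group. With dexamethasone it did so on 1 of 3 in each line. CSF1, a growth factor of macrophages, read 4.71, 3.85 and 4.44, then 4.38, 4.59 and 4.52, then 3.29, 5.81 and 3.60, then 3.76, 3.45 and 3.66. IL1A and LIF ranged from 3.88 to 5.15 and from 3.69 to 5.02 on the other 11 arrays. Of the surface proteins, the adhesion molecule ICAM1 ranged from 4.56 to 5.21 there, and CD83, a marker of activated dendritic cells, from 6.21 to 7.21, above the threshold on 9 arrays.

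**Figure D3:**
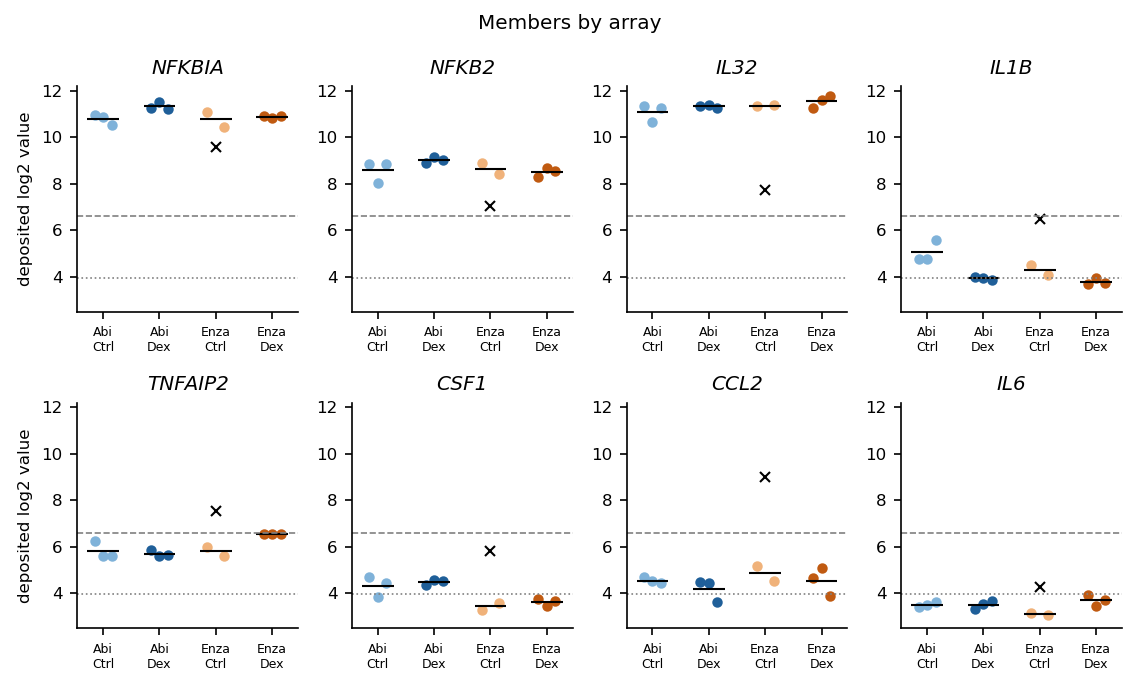
Deposited log2 values (y axis) of 8 members by group (x axis), 1 point per array, with Enza_Ctrl replicate 2 as a cross and the group mean without it as a bar. The dashed and dotted lines mark the 95th percentile and the median of the background rows; NFKBIA, NFKB2 and IL32 lay above the dashed line, and IL1B read lower with dexamethasone in both lines.

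In LNCaPabl-Abi, dexamethasone changed no member past the threshold of the test. By limma, with an adjusted p under 0.05 over all genes as the call, 0 of 30 members were called lower (0% of all genes) and 0 higher (0.0283%), and 0 had an unadjusted p under 0.05 in either direction (1.36% of all genes). Without Enza_Ctrl replicate 2, which also enters here through the shared spread, the counts were 0 lower (0%) and 0 higher (0.141%), with 1 member in each direction at an unadjusted p under 0.05 (7.09% of all genes over both directions). The median difference of the members was 0.02 on the log2 scale, beside 0.00 for all genes. Dexamethasone and DMSO arrays did not overlap for 1 member in the lower direction, IL1B (6.01% of all genes), and for 2 in the higher, NFKBIA and NFKB2 (6.26%).

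IL1B had the lowest difference in LNCaPabl-Abi, from 5.05 ± 0.48 to 3.94 ± 0.06 (SD, n = 3), or -1.11 ± 0.51 (SE, limma adjusted p = 1.00; unadjusted p = 0.0503). Without Enza_Ctrl replicate 2 the same difference had an SE of 0.22, a 95% interval from -1.59 to -0.64 and an adjusted p of 0.0793. With array quality weights it was -1.14 and was called (limma adjusted p = 0.0374), and over its alternatives the adjusted p ran from 0.0374 to 1.00. Since both groups were below the background threshold, no fold is given. NFKBIA was at 10.77 ± 0.23 with DMSO and 11.32 ± 0.16 with dexamethasone (SD, n = 3), a difference of 0.55 ± 0.33 (SE, limma adjusted p = 1.00). Without Enza_Ctrl replicate 2 its SE was 0.20 and its adjusted p 0.598. NFKB2 was at 0.43 ± 0.41 (SE), NFKB1 at 0.39 ± 0.61 and REL at -0.35 ± 0.31, with an adjusted p of 1.00 each. TNFAIP3 (-0.03 ± 0.37), CXCL8 (0.12 ± 0.52), RELA (-0.02 ± 0.29) and IL6 (0.00 ± 0.30) were near 0. Over the 10 members above background, the 95% intervals without Enza_Ctrl replicate 2 reached at the lowest -0.75, for REL, a fall of 40.5% on the deposited scale, and at the highest 0.97, for NFKBIA (1.96-fold). With 12 arrays the lowest bound was -1.40, for IL32 (62.1%). The other members of these 10 had bounds less low than those of the genes named.

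Dexamethasone also left every member uncalled in LNCaPabl-Enza. By limma 0 of 30 members were called lower (0% of all genes) and 0 higher (0%), with 1 lower at an unadjusted p under 0.05, IL1B (3.96% of all genes in either direction). Without Enza_Ctrl replicate 2 the counts were again 0 and 0 (0% of all genes in both directions), with 0 lower and 3 higher at an unadjusted p under 0.05 (3%). The median difference was 0.14 with 12 arrays (0.06 for all genes) and 0.03 without that array (0.00 for all genes). Groups did not overlap for IL1B in the lower direction (4.77% of all genes) and NFKBIE in the higher (3.96%). Without that array the lower set was IL1B, REL and TRAF1, 3 members (7.93%), and the higher set NFKBIE, TNFAIP2, CXCL1 and IL6, 4 members (7.93%).

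Many differences in LNCaPabl-Enza shrank or changed sign without the displaced array. CCL2 was at -1.69 ± 0.88 (SE), IL32 at 1.40 ± 0.75 and NFKBIZ at 1.03 ± 0.55, with a limma adjusted p of 0.523 each, and without Enza_Ctrl replicate 2 they were at -0.32 ± 0.33, 0.20 ± 0.23 and 0.17 ± 0.20. CXCL8 was at -0.69 ± 0.52 and turned to 0.03 ± 0.28, TNFAIP3 at 0.44 ± 0.37 turned to -0.02 ± 0.24, RELA at 0.34 ± 0.29 to -0.01 ± 0.20 and REL at 0.14 ± 0.31 to -0.24 ± 0.21. NFKBIA was at 0.52 ± 0.33 with 12 arrays and 0.12 ± 0.22 without. IL1B kept its sign, at -1.23 ± 0.51 (SE, limma adjusted p = 0.523) with 12 arrays and -0.50 ± 0.25 (adjusted p = 1.00, 95% interval from -1.03 to 0.04) without. The smallest unadjusted p without that array belonged to TNFAIP2, at 0.73 ± 0.22 (SE, limma unadjusted p = 0.00541, adjusted p = 1.00), a member that was at 0.15 ± 0.42 with it. IL6 (0.58 ± 0.20) and CXCL1 (0.50 ± 0.23) followed, then IL1B in the lower direction and NFKBIE (0.47 ± 0.27), each with an adjusted p of 1.00 and below background. With 12 arrays IL6, CXCL1 and NFKBIE were at 0.20 ± 0.30, 0.06 ± 0.35 and 0.39 ± 0.28. Of the 10 members above background, the lowest interval bound without the array was -0.70, for REL (a fall of 38.4%), and the highest 0.69, for IL32 (1.61-fold). With 12 arrays the lowest was -0.67, for BIRC2, and the highest 3.06, for IL32 (8.34-fold).

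**Figure D4:**
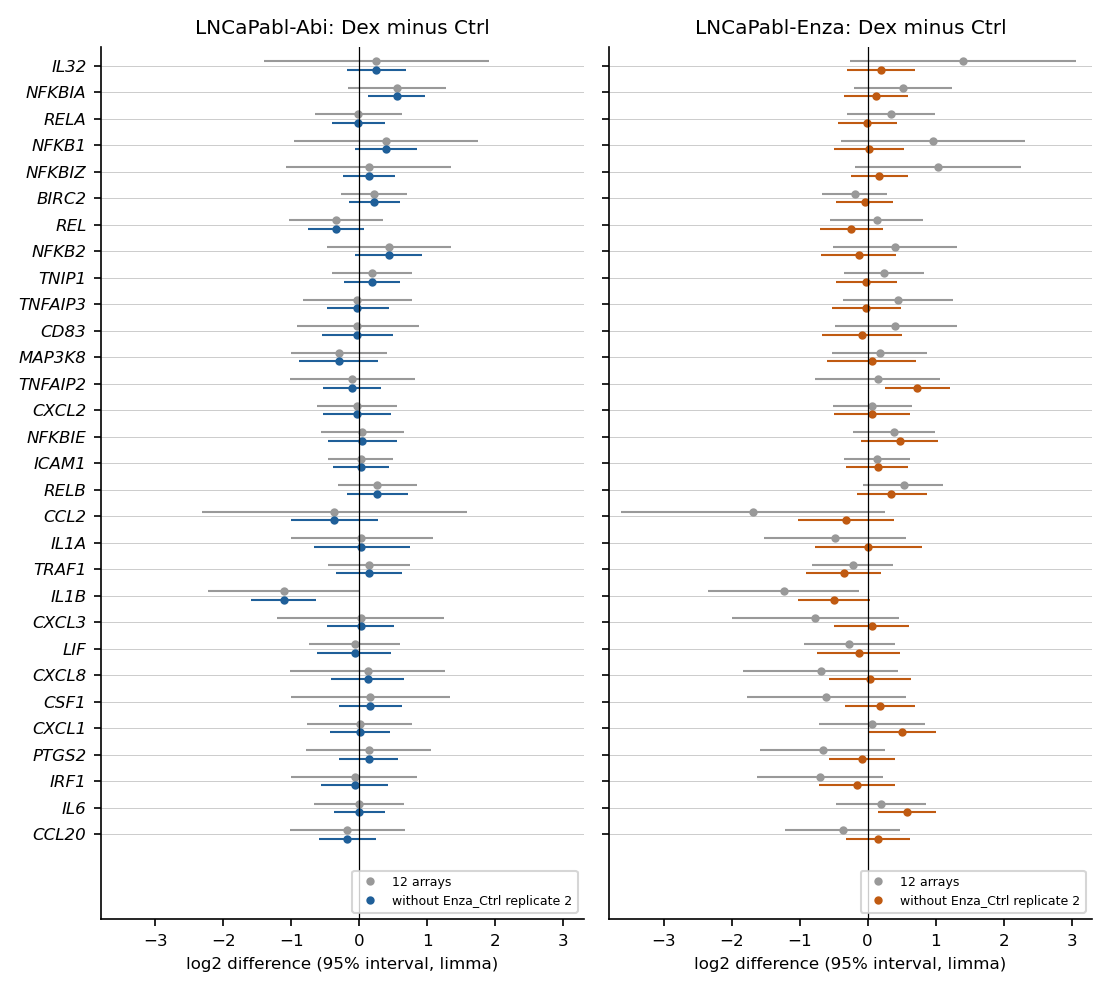
Log2 difference of dexamethasone minus DMSO (x axis) with its 95% interval from limma for each measured member (rows) in LNCaPabl-Abi (left) and LNCaPabl-Enza (right), grey with 12 arrays and coloured without Enza_Ctrl replicate 2. IL1B lay lowest at the left, and the grey points of CCL2 and IL32 at the right moved towards 0 without that array.

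The comparisons of dexamethasone in the lines share no arrays. IL1B was the 1 member lower without overlap in both lines, a pattern shown by 0.221% of all genes with 12 arrays and 0.458% without Enza_Ctrl replicate 2, and 0 members were higher without overlap in both. The IL1B readings with dexamethasone lay around the median background row, above it on 1 of 3 arrays in each line. Without Enza_Ctrl replicate 2 the gap in LNCaPabl-Enza ran from 3.97 to 4.08. The difference between the responses (Enza minus Abi) was tested directly, and by limma 0 members were called lower (0% of all genes) and 0 higher (0%) with either set of arrays. At an unadjusted p under 0.05 there were 0 members with 12 arrays (1.5% of all genes), and without Enza_Ctrl replicate 2 there were 2, both positive, TNFAIP2 and IL6 (3.2%). TNFAIP2 was at 0.26 ± 0.59 (SE) with 12 arrays and 0.84 ± 0.30 without (limma adjusted p = 0.869 and 0.999), and IL6 at 0.20 ± 0.43 and 0.58 ± 0.26. The difference for IL1B changed sign with the array, at -0.12 ± 0.72 with 12 arrays and 0.62 ± 0.34 without (adjusted p = 0.952 and 0.999). NFKBIA was at -0.03 ± 0.46 and -0.43 ± 0.30.

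Between the lines with DMSO, no member was called. By limma 0 were lower in Enza_Ctrl (0.209% of all genes) and 0 higher (0.0565%), with 0 at an unadjusted p under 0.05 (11.3%). Without Enza_Ctrl replicate 2 there were 0 lower (0.956%) and 0 higher (0.334%), with 2 lower at an unadjusted p under 0.05, CSF1 and IL1B (11.1%). Groups did not overlap for TNFAIP3 in the lower direction (8.22% of all genes) and BIRC2 in the higher (5.95%), and without the array for 4 members lower (12.5%) and 2 higher (11.5%). CSF1 was at -0.10 ± 0.53 (SE) with 12 arrays and -0.89 ± 0.24 without (limma adjusted p = 0.103), and with array quality weights it was at -1.02 and called (adjusted p = 0.0393). IL1B was at -0.03 ± 0.51 and -0.76 ± 0.25 (adjusted p = 0.204 without the array). BIRC2 was at 0.44 ± 0.22 and 0.29 ± 0.20, CXCL8 at 1.05 ± 0.52 and 0.33 ± 0.28, and CCL2 at 1.69 ± 0.88 and 0.32 ± 0.33.

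Between the lines with dexamethasone, CSF1 was lower and TNFAIP2 higher in LNCaPabl-Enza, in fits in which Enza_Ctrl replicate 2 did not widen the spread. With 12 arrays 0 members were called lower (0.153% of all genes) and 0 higher (0.124%) by limma, with 0 at an unadjusted p under 0.05 (4.14%). Without that array 5 had one (11.5%). Also without that array, which belongs to neither group, CSF1 was called lower at -0.87 ± 0.21 (SE, adjusted p = 0.0464), 1 member beside 1.53% of all genes. TNFAIP2 was called higher at 0.83 ± 0.20 (adjusted p = 0.0440), 1 member beside 0.752%. With 12 arrays both differences were the same size with SEs of 0.53 and 0.42 and an adjusted p of 1.00. CSF1 was at 4.50 ± 0.11 in Abi_Dex and 3.62 ± 0.16 in Enza_Dex, and TNFAIP2 at 5.71 ± 0.13 and 6.54 ± 0.01 (SD, n = 3), so CSF1 was below background in both groups and TNFAIP2 above it on 1 array of Enza_Dex. Groups did not overlap for 5 members in the lower direction (10.7% of all genes), namely NFKB2, NFKBIA, PTGS2, LIF and CSF1, and for 2 in the higher (9.43%), TNFAIP2 and CCL20. NFKBIA was at -0.43 ± 0.20 (SE), NFKB2 at -0.51 ± 0.23 and CCL20 at 0.47 ± 0.20 without Enza_Ctrl replicate 2, and each had an adjusted p from 0.358 to 0.420.

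Other genes of the pathway were not called after dexamethasone either, in fits that called few genes or none. Of 31 measured receptors, adaptors and kinases upstream of NF-kB, 0 were called by limma in either line after dexamethasone. This held with 12 arrays and without Enza_Ctrl replicate 2. Of all genes, 0% were called lower in either line and 0% higher in LNCaPabl-Enza. In LNCaPabl-Abi 0.0283% of all genes were called higher with 12 arrays and 0.141% without that array. The median of the 31 upstream genes was -0.02 in LNCaPabl-Abi, and for LNCaPabl-Enza 0.44 with 12 arrays and 0.07 without that array. The smallest p among them in LNCaPabl-Enza was that of TRAF6, an adaptor of interleukin-1 and Toll-like receptors, at 1.11 ± 0.43 (SE, adjusted p = 0.523) and 0.52 ± 0.24 without the array. Of 15 further inhibitors and deubiquitinases 0 were called, with CYLD, a deubiquitinase that restrains NF-kB, at -0.41 ± 0.21 in LNCaPabl-Abi (adjusted p = 1.00). Of 13 AP-1 and immediate early genes, whose products act with NF-kB on many promoters, 0 were called. In none of these fits did more than 2 genes of any of the 3 lists have an unadjusted p under 0.05. Of all genes 1.36% to 7.09% had one, depending on the fit. Between the lines, without Enza_Ctrl replicate 2, 0.956% of all genes were called lower in LNCaPabl-Enza with DMSO and 1.53% with dexamethasone. TLR3, a receptor of double-stranded RNA, was among them, at -1.11 ± 0.25 (SE, limma adjusted p = 0.0399) with DMSO and -1.39 ± 0.22 (adjusted p = 0.00281) with dexamethasone. TNFRSF21, a death-domain receptor, was called at -1.65 ± 0.36 (adjusted p = 0.0247) with dexamethasone. With 12 arrays neither was called: TLR3 had an adjusted p of 0.335 with DMSO and 0.098 with dexamethasone, and TNFRSF21 had 0.245 with dexamethasone.

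SGK1, a kinase induced by glucocorticoids, read higher with dexamethasone on every array of both lines and was called in LNCaPabl-Abi. It read 6.52, 6.2 and 5.82 in Abi_Ctrl, under the background threshold on all 3, and 13.59, 13.29 and 13.83 in Abi_Dex. Against that threshold it was at least 128-fold higher on the deposited scale (limma adjusted p = 0.00461). In the other line SGK1 read 6.13, 6.17 and 6.89 in Enza_Ctrl, above the threshold on 1 array, and 9.66, 9.99 and 13.20 in Enza_Dex. These groups did not overlap, and limma put the difference at 4.55 ± 0.73 (SE) with 12 arrays and at 4.43 ± 0.70 when Enza_Ctrl replicate 2 was left out, with an adjusted p of 0.523 and 0.269. In LNCaPabl-Abi SGK1 was the 1 called gene among 11 measured genes of a list of glucocorticoid-induced genes (0.0283% of all genes were called higher). SGK1 stands in that list as a gene induced by glucocorticoids, not as an anti-inflammatory gene. The inhibitors of NF-kB signalling in the list were not called. That list shares NFKBIA, TNIP1 and TNFAIP3 with the members. Its differences in LNCaPabl-Abi were positive for 9 genes and negative for 2, with a median of 0.55 (0.00 for all genes). By limma 3 had an unadjusted p under 0.05 with 12 arrays (1.36% of all genes) and 5 without Enza_Ctrl replicate 2 (7.09%), all higher. In LNCaPabl-Enza 9 were positive and 2 negative with 12 arrays, with a median of 0.41 (0.06 for all genes). Without Enza_Ctrl replicate 2 there were 7 positive and 4 negative, with a median of 0.12 (0.00 for all genes). The list was chosen as genes raised by glucocorticoids, so a lean to positive values is no result about it. TSC22D3, which encodes the NF-kB-binding protein GILZ, was at 1.5 ± 0.53 in LNCaPabl-Abi (adjusted p = 1.00) and 0.55 ± 0.53 in LNCaPabl-Enza (adjusted p = 0.564). Its groups overlapped in both lines. In LNCaPabl-Abi it read 9.74, 9.25 and 7.75 with DMSO and 11.14, 10.62 and 9.48 with dexamethasone. NR3C1, the glucocorticoid receptor, read 11.14, 11.30 and 11.49 in Abi_Ctrl and 9.44, 9.99 and 10.16 in Abi_Dex. In the other line it read 6.51, 7.43 and 10.37 in Enza_Ctrl and 6.72, 6.38 and 9.03 in Enza_Dex. Replicate 3 was high in both Enza groups and the remaining Enza arrays were low, so the arrays behind the comparison in LNCaPabl-Enza were uneven in the receptor. NR3C1 passed the background threshold on 2 of 3 arrays in each Enza group, and not on Enza_Ctrl replicate 1 or Enza_Dex replicate 2. In Enza_Ctrl the passing arrays were replicate 3 and the displaced replicate 2. With that array left out, NR3C1 passed there on replicate 3 alone. On Enza_Dex replicate 1 it read 6.72 against a threshold of 6.70. IL1B on the replicates numbered 3 was at 4.08 and 3.72. The part of the receptor's level in the members' differences was not tested.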

How the data were processed

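RNA of the cells was hybridised to Affymetrix arrays, 12 in all with 1 colour each. The values the authors deposited are on a log2 scale, and Affymetrix Expression Console, RMA and limma are the tools in the submitters' processing notes. Options, versions and build were not given in the sources used here. Deposited values ran from 1.66 to 18.6, wide for RMA alone, so a further contrast-widening step is possible and differences on this scale can exceed those of RNA. Of 24351 rows, 17709 had 1 gene symbol in the platform's annotation and 6642 none. The brightest row per symbol was kept (17687 genes), and each measured member had 1 row.

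Groups came from the titles, which do not say whether replicates were separate cultures, so p-values measure only the spread between these arrays. Their number limits the precision. limma 3.58.1 (R 4.3.3, statmod 1.5.0; lmFit and eBayes) fitted 4 group means on all 12 arrays, with no filter and no replicate block, and p-values were adjusted by Benjamini-Hochberg over all genes. The script was checked on simulated data with spreads taken from the 11 arrays other than Enza_Ctrl replicate 2. That check does not cover the wider spread of the fit on all 12 arrays. Alternatives were the omission of each array, a replicate block, quantile normalization anew, a filter on dim genes, array weights, an intensity trend, only the groups compared, other background thresholds and the mean of rows per symbol. The members and the other lists were chosen with earlier results of these data known. Per-array values are given for members called in any comparison with 12 or 11 arrays, for the 6 smallest p in each comparison with dexamethasone and in Enza_Ctrl against Abi_Ctrl, for members above background whose groups did not overlap, and for NFKBIA, TNFAIP3, CXCL8, IL6 and RELA. Members of other lists were named if called or among the 2 smallest p of their list. RefSeq promoters were searched on both strands.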

Additional observations from a re-analysis of the deposited data

How the results depend on the processing

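Among 36 member differences the sign and the side of the threshold were unchanged in 641 of 696 alternative values. In the alternatives run, called members appeared only when the spread or weight of Enza_Ctrl replicate 2 changed: 1 member lower (CSF1) and 1 higher (TNFAIP2) in Enza_Dex against Abi_Dex without that array, without it and with a replicate block, with array quality weights, and with only the groups compared. Array quality weights also called 1 member lower in Abi_Dex against Abi_Ctrl (IL1B) and 1 in Enza_Ctrl against Abi_Ctrl (CSF1). Leaving out each array in turn gave 0 to 1 members in Enza_Dex against Abi_Dex, in each direction, and 0 in the other comparisons. The median over the members in LNCaPabl-Abi was -0.04 to 0.07 over these omissions and 0.19 over members above background; in LNCaPabl-Enza it was 0.03 to 0.15, 0.04 after quantile normalization anew, and over members above background 0.42 with 12 arrays and -0.01 without Enza_Ctrl replicate 2. Against the median background row 20, 22, 16 and 18 members passed in Abi_Ctrl, Abi_Dex, Enza_Ctrl and Enza_Dex (70.9%, 72.2%, 54.1% and 71.4% of all genes). Against the highest row 9, 9, 3 and 8 did (41.2%, 40.3%, 29.3% and 39.5% of all genes). On all arrays the highest row was passed by 3 members with Enza_Ctrl replicate 2 (28.2% of all genes) and 8 without (37.8%). The filter on dim genes left IL1B, CSF1, TNFAIP2 and other dim members untested.

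Uncalled differences changed sign as follows when 1 array was left out. In LNCaPabl-Abi, TNFAIP3 ran from -0.26 to 0.15, IL6 from -0.07 to 0.08 and RELA from -0.13 to 0.10 (0.00 after quantile normalization anew, 0.05 with array weights). In LNCaPabl-Enza, TNFAIP2 ran from -0.25 to 0.73 (-0.27 after quantile normalization), IL6 from -0.01 to 0.58, CXCL1 from -0.33 to 0.50, TNFAIP3 from -0.02 to 0.68 and CXCL8 from -1.07 to 0.03. RELA there ran from -0.01 to 0.56, with -0.07 after quantile normalization, -0.07 with a replicate block and the array left out, and -0.01 with array weights. REL ran from -0.24 to 0.37, with -0.29, -0.25 and -0.20 in the same order. For the difference between the responses, TNFAIP2 ran from -0.14 to 0.84 (-0.11 after quantile normalization), IL6 from -0.01 to 0.58, NFKBIA from -0.43 to 0.33, and IL1B from -0.59 to 0.62 (0.63 with the block and the array left out, 0.59 with array weights). In Enza_Ctrl against Abi_Ctrl, CSF1 ran from -0.89 to 0.37 and IL1B from -0.76 to 0.45 (0.09 after quantile normalization). The cause was not tested.

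Nothing in the labels ties the replicate numbers to a shared culture or day, so the arrays were not treated as paired. The correlations below do not exclude a pairing, and those with Enza_Ctrl use group means that include its replicate 2. Deviations of same-numbered arrays correlated at -0.04 to 0.30 (median 0.08), with 5 of 18 pairs over 0.1 against 0 of 36 pairs of other numbers (median -0.03), and 10 of 12 arrays correlated best with an array of their own number, a hint from the data and not from the design. With the replicate block and 12 arrays, 0 members were called in any comparison, as without it. With the block and Enza_Ctrl replicate 2 left out, CSF1 and TNFAIP2 were called (adjusted p = 0.0352 and 0.0223).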
